A study of Mus musculus with 8 samples.

Results

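The genes described here are 9 members of the Polycomb repressive complexes, *Cbx2*, *Cbx6*, *Cbx7*, *Cbx8*, *Ezh1*, *Ezh2*, *Suz12*, *Eed* and *Bmi1*, out of 55414 genes counted by RNAseq in spleen neutrophils. They were chosen on measured values. *Cbx7* was picked because it was much lower in *Cxcr2-/-* than in WT neutrophils, and the others were set beside it for contrast. The same comparison therefore is no test of these 9 genes, and their values are given as a description, with no p. Of the 9 genes, 8 passed the filter on low counts and *Cbx2* did not.

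The neutrophils came from spleens of 10-week-old mice on the FVB background, 4 WT and 4 *Cxcr2-/-*, kept in SOPF housing (a facility free of specific and opportunistic pathogens), with 1 library per mouse. *Cxcr2* encodes a receptor for CXC chemokines that draws mature neutrophils out of the bone marrow, and the mice lack it in every cell, not in neutrophils alone. Cells were enriched on CD11b and sorted as CD45+ CD11b+ Ly6G+ F4/80-. Levels are given in CPM (counts per M counts on genes, after TMM scaling of the library sizes), and each log2 fold change sets *Cxcr2-/-* over WT in edgeR's quasi-likelihood fit to 16778 genes. All p-values cover the spread between these 8 mice.

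Depth was similar in the groups, with 34.2 to 46.2 M counts on genes in WT and 37.5 to 43.8 M in *Cxcr2-/-* libraries. *Cxcr2* was at 2252, 1719, 1940 and 1913 CPM in the WT libraries and at 20.7, 19.0, 15.6 and 12.9 CPM in the *Cxcr2-/-* libraries, so each library matched its label. Neutrophil markers were abundant in all 8 libraries and differed between the groups. The 10 of them summed to 33090 to 47170 CPM in WT and 71310 to 87070 CPM in *Cxcr2-/-* libraries. Of the 10, 7 rose while *Csf3r* and *Cxcr4* fell (edgeR adjusted p under 0.05), beside 23.7% and 21.0% of all genes. These are RNA levels, and by flow cytometry the paper found a higher percentage of Cxcr4+ cells among spleen neutrophils of *Cxcr2-/-* mice. The summed level of 10 B cell markers was 77.7 to 167 CPM in WT and 33.7 to 77.4 CPM in *Cxcr2-/-* libraries. Of the T cell markers, *Cd3d* stood at 80.1 to 136 CPM while *Cd3e* was at most 0.563 CPM in every library. Of 6 T cell markers tested, 3 fell (*Cd4*, *Cd5* and *Tcf7*) and 0 rose (edgeR adjusted p under 0.05), beside 21.0% and 23.7% of all genes. *Cd3d*, which made up most of the T cell sum, did not pass (log2 fold change 0.13). In bulk samples, fewer cells of a type and less RNA per cell cannot be told apart.

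Polycomb proteins keep genes silent through 2 kinds of complex. PRC2 places the repressive methyl mark H3K27me3 on histone H3: Ezh1 or Ezh2 is the enzyme, Suz12 holds the complex together, and Eed binds the mark and stimulates the enzyme. Canonical PRC1 reads the mark through a Cbx subunit with a chromodomain (such as Cbx2, Cbx6, Cbx7 or Cbx8), joined to the ubiquitin ligases Ring1 or Rnf2 and to a Pcgf subunit such as Bmi1. In blood formation, Ezh2 is typical of dividing progenitors and Ezh1 of cells that have left the cell cycle, while Cbx7 and Bmi1 are known for the self-renewal of stem cells and for silencing of the *Cdkn2a* locus.

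Among the Cbx readers of PRC1, *Cbx7* had the largest difference of the 9 genes. *Cbx7* (ENSMUSG00000053411, chromosome 15 from 79915807 to 79971119, GRCm38) was at 56.4, 52.5, 49.5 and 63.8 CPM in the WT libraries and at 11.9, 12.1, 12.4 and 13.0 CPM in the *Cxcr2-/-* libraries. The groups were far apart, and the 4 *Cxcr2-/-* libraries lay closer together than the 4 WT libraries did. The means were 55.6 ± 6.16 and 12.3 ± 0.472 CPM (SD, n = 4 each), a level 4.51-fold lower in *Cxcr2-/-* neutrophils, with a log2 fold change of -2.17 (SE 0.10, 95% interval -2.39 to -1.95). Of the 16778 genes fitted, 223 (1.33%) had a lower log2 fold change than *Cbx7*, and the median over all of them was 0.01. The summed B cell markers were lower in the same direction. With a covariate for B and T cell RNA in the fit, the log2 fold change of *Cbx7* was -2.21 (SE 0.18). The B cell sums did not overlap between the groups, so this covariate goes in part with genotype. Here and below, that fit cannot separate B and T cell RNA from genotype. On the other strand, *Apobec3* shares 100 exon bases with *Cbx7* and was higher in *Cxcr2-/-* neutrophils, at 22.7 ± 2.46 against 15.3 ± 0.884 CPM.

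*Cbx8* (ENSMUSG00000025578, chromosome 11 from 119036305 to 119040969) was at 10.9, 8.64, 9.70 and 9.31 CPM in WT and at 5.84, 6.72, 8.21 and 6.85 CPM in *Cxcr2-/-* libraries. The lowest WT library was just above the highest *Cxcr2-/-* library, replicate 3. The means were 9.65 ± 0.967 and 6.91 ± 0.978 CPM, with a log2 fold change of -0.48 (SE 0.14, 95% interval -0.79 to -0.17). It was -0.21 (SE 0.24) with the covariate for B and T cell RNA. The summed B cell markers were lower in the same libraries. That fit cannot separate them from genotype, and their part in the result was not tested.

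The remaining Cbx genes chosen were at low levels, and *Cbx2* was near the limit of detection. *Cbx6* (ENSMUSG00000089715, chromosome 15 from 79823896 to 79834688) lies 81.1 kb from *Cbx7* on the same strand. It was at 0.42, 1.69, 0.882 and 0.636 CPM in WT and at 0.556, 1.11, 1.58 and 1.68 CPM in *Cxcr2-/-* libraries, from 19 to 84 counts per library. The groups overlapped over most of their range, and the highest of all 8 libraries was WT replicate 2. The log2 fold change was 0.43 (SE 0.44, 95% interval -0.52 to 1.38), and it ran from 0.19 without WT replicate 1 to 0.92 without WT replicate 2. *Cbx2* (ENSMUSG00000025577, chromosome 11 from 119022962 to 119031270), 5.04 kb from *Cbx8*, had 8, 8, 5 and 0 counts in WT and 4, 2, 4 and 8 counts in *Cxcr2-/-* libraries. The count of 0 in WT replicate 4 allows up to 0.0868 CPM (3 counts, counting error only), and no fold is given. So *Cbx6*, near *Cbx7*, and *Cbx2*, near *Cbx8*, were at very low levels in both groups.

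**Figure D1:**
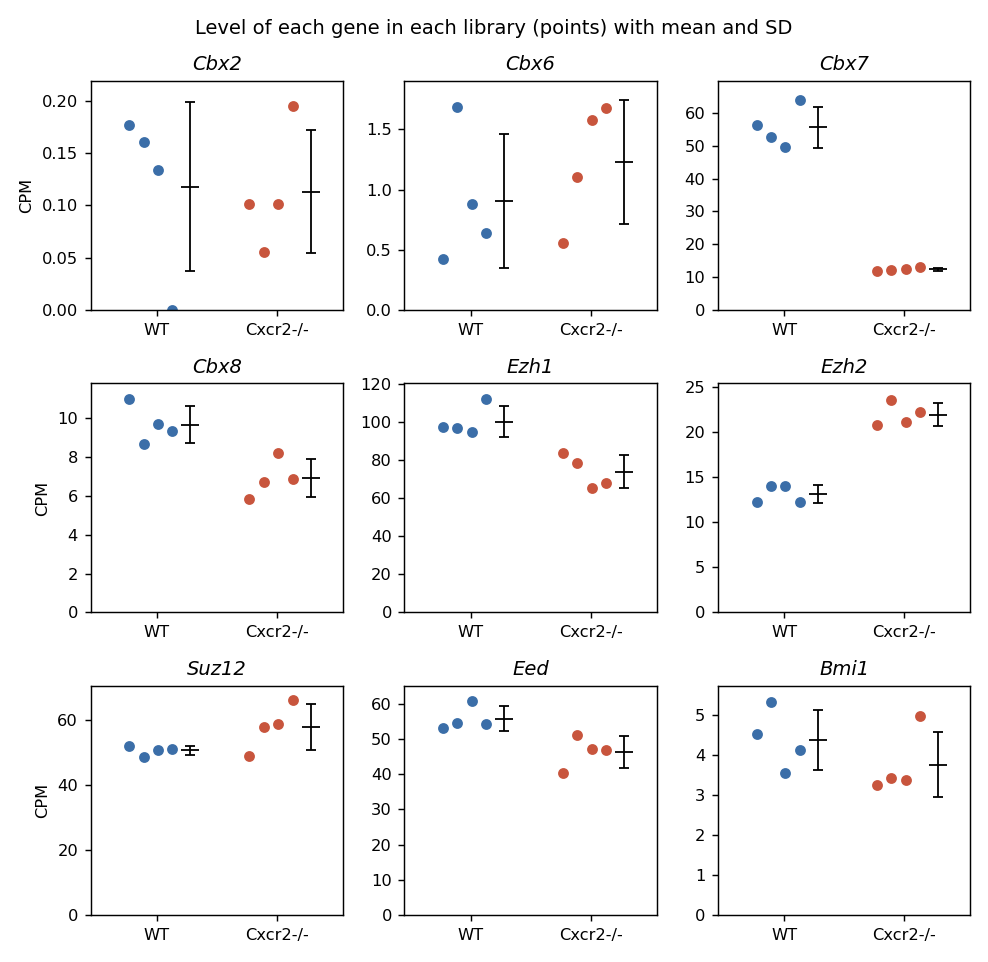
Level in CPM (y axis, from 0, a scale of its own in each panel) of each of the 9 genes in the 4 WT (blue) and 4 *Cxcr2-/-* (red) libraries, with the group mean and SD as bars. *Cbx7* falls into separate groups, 49.5 to 63.8 against 11.9 to 13.0 CPM, *Ezh2* is the gene that is higher in each *Cxcr2-/-* library, and *Cbx2*, *Cbx6*, *Suz12* and *Bmi1* overlap.

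In PRC2, the enzymes differed in opposite directions. *Ezh2* (ENSMUSG00000029687, chromosome 6 from 47530139 to 47595341) was at 12.2, 14.0, 14.0 and 12.3 CPM in WT and at 20.8, 23.6, 21.2 and 22.3 CPM in *Cxcr2-/-* libraries. Each *Cxcr2-/-* library was above each WT library. The means were 13.1 ± 1.0 and 21.9 ± 1.27 CPM, 1.67-fold higher in *Cxcr2-/-* neutrophils, with a log2 fold change of 0.74 (SE 0.10, 95% interval 0.52 to 0.96). *Ezh1* (ENSMUSG00000006920, chromosome 11 from 101191115 to 101226463) was at 97.1, 96.8, 94.6 and 112 CPM in WT and at 83.8, 78.5, 65.1 and 68.0 CPM in *Cxcr2-/-* libraries. WT replicate 4 was high in its group, and the groups did not overlap. The means were 100.1 ± 8.01 and 73.8 ± 8.81 CPM, with a log2 fold change of -0.44 (SE 0.10, 95% interval -0.66 to -0.22), or -0.74 (SE 0.16) with the covariate for B and T cell RNA.

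Per kilobase of exon, the ratio of *Ezh2* to *Ezh1* was 0.140, 0.161, 0.165 and 0.122 in the WT libraries and 0.276, 0.335, 0.363 and 0.365 in the *Cxcr2-/-* libraries. *Ezh1* was thus the more abundant of the pair in each of the 8 libraries, and the ratio was higher in each *Cxcr2-/-* library than in any WT library (0.335 ± 0.0415 against 0.147 ± 0.0197). Most markers of dividing cells were higher in *Cxcr2-/-* libraries, as *Ezh2* was. Of 18 proliferation markers tested, 17 rose (edgeR adjusted p under 0.05), beside 23.7% of all genes. The summed level of the 18 was 422 to 474 CPM in WT and 1139 to 1258 CPM in *Cxcr2-/-* libraries. The exception, *Pcna*, was at 54.8 to 59.9 CPM in WT and 30.4 to 56.4 CPM in *Cxcr2-/-* libraries (log2 fold change -0.43, edgeR adjusted p = 0.0584). The 5 early neutrophil granule genes, made at the promyelocyte stage, also rose, beside the same share of all genes. They summed to 4.37 to 17.3 CPM in WT and 70.5 to 386 CPM in *Cxcr2-/-* libraries. The part of the proliferation and granule genes in the *Ezh2* result was not tested. Within the *Cxcr2-/-* group, the granule genes were high in replicates 3 and 4 (236 and 386 CPM) and lower in replicates 1 and 2 (70.5 and 71.8 CPM).

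The scaffold and the reader of PRC2 differed little. *Suz12* (ENSMUSG00000017548, chromosome 11 from 79993106 to 80034123) was at 52.0, 48.8, 50.7 and 51.1 CPM in WT and at 48.8, 57.8, 58.9 and 66.2 CPM in *Cxcr2-/-* libraries. *Cxcr2-/-* replicate 1 lay within the WT range and the other 3 above it. The log2 fold change was 0.19 (SE 0.10, 95% interval -0.02 to 0.41), between 0.11 without *Cxcr2-/-* replicate 4 and 0.27 without *Cxcr2-/-* replicate 1. It was 0.08 (SE 0.10) with upper-quartile normalization and 0.37 (SE 0.16) with the covariate for B and T cell RNA. *Eed* (ENSMUSG00000030619, chromosome 7 from 89954654 to 89980983) was at 53.2, 54.4, 60.9 and 54.3 CPM in WT and at 40.2, 51.0, 47.2 and 46.9 CPM in *Cxcr2-/-* libraries. The groups did not overlap, and the gap between them, from 51.0 to 53.2 CPM, was small against the spread within each. The log2 fold change was -0.27 (SE 0.09, 95% interval -0.47 to -0.06). *E230029C05Rik*, a transcript on the other strand, shares 261 exon bases with *Eed* and was also lower, at 4.51 ± 0.728 against 8.04 ± 1.79 CPM.

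*Bmi1* (ENSMUSG00000026739, chromosome 2 from 18677018 to 18686629), the Pcgf subunit chosen from PRC1, was at 4.53, 5.35, 3.55 and 4.14 CPM in WT and at 3.26, 3.43, 3.38 and 4.98 CPM in *Cxcr2-/-* libraries. *Cxcr2-/-* replicate 4 stood above 3 of the 4 WT libraries, and the other 3 *Cxcr2-/-* libraries were below all of WT. The log2 fold change was -0.22 (SE 0.20, 95% interval -0.65 to 0.20), -0.41 without *Cxcr2-/-* replicate 4, -0.14 without WT replicate 2 and 0.02 with the covariate for B and T cell RNA.

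Over all 16778 genes, 23.7% were past an edgeR adjusted p of 0.05 as higher and 21.0% as lower. With at least a 1.5-fold difference as well, the shares were 15.7% as higher and 15.7% as lower. Libraries of the groups did not overlap for 1 higher and 4 lower genes of the 8 fitted, against 22.5% and 19.1% of all genes. Since *Cbx7* was picked from this comparison, nothing is read from these counts.

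Per kilobase of exon, the order of the 9 genes was not the same in the groups. In WT neutrophils *Eed* (14.6 ± 0.921 CPM per kb) and *Ezh1* (13.5 ± 1.08) came first, with ranges that overlapped, and then *Suz12* (10.2 ± 0.275), *Cbx7* (8.57 ± 0.95), *Cbx8* (2.63 ± 0.263), *Ezh2* (1.96 ± 0.15), *Bmi1* (1.11 ± 0.189), *Cbx6* (0.0855 ± 0.0522) and *Cbx2* (0.0277 ± 0.0189). From *Ezh1* to *Bmi1*, each gene was above the next in 4 of 4 WT libraries, and only *Cbx6* and *Cbx2* overlapped besides the leading pair. In *Cxcr2-/-* neutrophils *Eed* (12.1 ± 1.17 CPM per kb), *Suz12* (11.7 ± 1.44) and *Ezh1* (9.92 ± 1.18) overlapped with their neighbours in the order. *Ezh2* (3.29 ± 0.191) stood above *Cbx7* (1.90 ± 0.0728) in all 4 *Cxcr2-/-* libraries, where in WT it was below it. *Cbx7* and *Cbx8* (1.88 ± 0.266) overlapped there, and *Bmi1* (0.947 ± 0.205) followed.

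The make-up of these Cbx transcripts differed accordingly. Of the summed CPM per kb of *Cbx2*, *Cbx6*, *Cbx7* and *Cbx8*, *Cbx7* took 74.0%, 76.1%, 73.5% and 79.1% in the WT libraries and 52.4%, 48.9%, 44.3% and 49.1% in the *Cxcr2-/-* libraries. *Cbx8* took 25.3%, 22.1%, 25.4% and 20.4% in WT and 45.4%, 48.1%, 51.7% and 45.9% in *Cxcr2-/-* libraries. Per kb, *Cbx7* was thus the leading one of these 4 in each WT library. In *Cxcr2-/-* it was close to *Cbx8*, which led in replicate 3. In CPM, not divided by length, *Cbx7* was 2.04, 1.79, 1.51 and 1.89 times *Cbx8* in the *Cxcr2-/-* libraries. The closeness of the 2 genes therefore depends on the exon lengths used. *Cbx6* and *Cbx2* stayed a small remainder, at 0.778% ± 0.515 and 0.252% ± 0.17 in WT and 2.89% ± 1.04 and 0.674% ± 0.33 in *Cxcr2-/-* libraries. A share rises when another falls, and the level of *Cbx8* itself was lower in *Cxcr2-/-* neutrophils. The shares follow from the values that chose *Cbx7* and are a description.

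**Figure D2:**
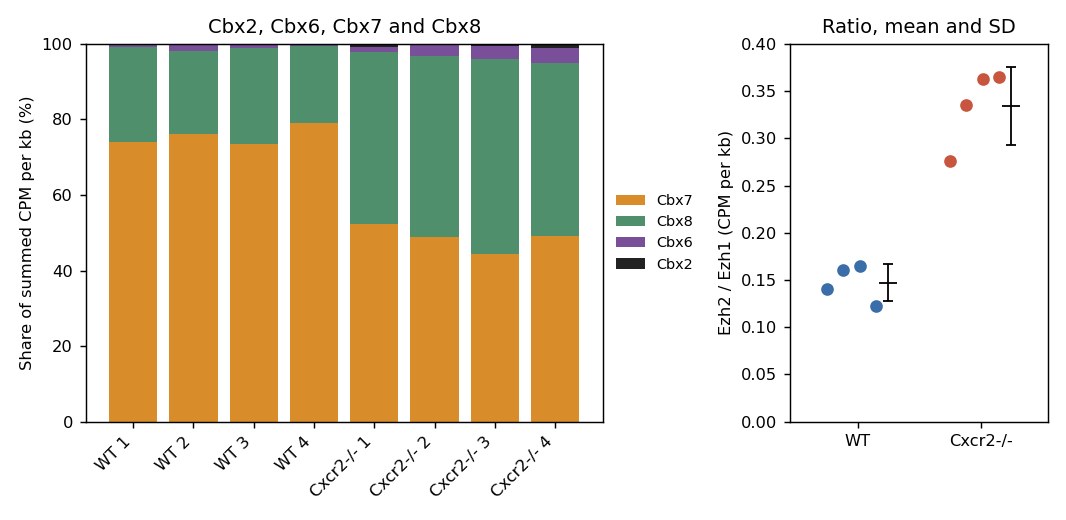
Left, share (%) of *Cbx2*, *Cbx6*, *Cbx7* and *Cbx8* in their summed CPM per kb of exon, one bar per library; *Cbx7* (orange) takes 73.5% to 79.1% in WT and 44.3% to 52.4% in *Cxcr2-/-* libraries. Right, ratio of *Ezh2* to *Ezh1* in CPM per kb, from 0, with points for libraries and bars for the mean and SD, 0.147 ± 0.0197 in WT and 0.335 ± 0.0415 in *Cxcr2-/-*.

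The upstream sequences of *Cbx7* and *Ezh2* are shown because these genes had the largest differences, one lower and one higher. RefSeq windows of 300 bases around the start (250 before it and 50 after, GRCm38.p6) were at hand for 8 of the 9 genes, all but *Cbx2*. The stretches below lie before the start on the minus strand and outside annotated exons, written 5′ to 3′, and the capitals mark CCAAT or its complement ATTGG, the box bound by NF-Y. The first covers chr15:79932769-79932896 and the second chr6:47595059-47595183.
Cbx7: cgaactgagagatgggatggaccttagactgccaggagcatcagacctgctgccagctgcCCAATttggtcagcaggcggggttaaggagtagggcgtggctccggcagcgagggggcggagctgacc
Ezh2: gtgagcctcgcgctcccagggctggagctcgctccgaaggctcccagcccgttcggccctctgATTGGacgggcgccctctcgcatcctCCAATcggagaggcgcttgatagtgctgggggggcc
The *Cbx7* and *Ezh2* windows both lie inside the gene as GENCODE M21 draws it, that of *Cbx7* at an internal first exon. The printed stretches thus come before the RefSeq start, not before the start of the GENCODE gene. CCAAT on either strand was found 3 times in the *Ezh2* window, 2 times in that of *Cbx8* and 1 time each in those of *Cbx7*, *Suz12* and *Eed*, and 12289 of 32851 windows (37.4%) held it. An E2F-like site (TTTGGCGC or TTTCGCGC, either strand) was in the *Ezh2* window alone of the 8, just past the start and outside the printed stretch, and in 0.813% of all windows. The 8 windows were rich in CpG, from 17 in that of *Eed* to 41 in that of *Suz12*, with 33 for *Cbx7* and 31 for *Ezh2*, against a median of 7. Such matches of letters describe the windows and are not evidence of a bound site.

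The genes whose log2 CPM followed *Cbx7* most closely over the 8 libraries were *Nlrp1b* (Pearson r = 0.998), *Rufy4* (r = 0.997), *Entpd1* (r = 0.997), *Alcam* (r = 0.997) and *Tns1* (r = 0.997), among the 7501 genes whose average log2 CPM was 3 or more. They were at 184, 69.2, 333, 160 and 90.7 CPM in WT and at 52.8, 13.4, 157, 53.9 and 7.18 CPM in *Cxcr2-/-* neutrophils, in that order. The 8 points fall into the 2 genotypes and r is given as a description only, since 591 genes (7.88%) had an r above 0.95. *Rufy4* and *Tns1* lie 5.77 kb and 29.5 kb from *Cxcr2* on chromosome 1, and none of the 5 is on chromosome 15 with *Cbx7*.

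Beyond the 9 genes, 55 other genes of the Polycomb complexes and their opposing enzymes were listed, and 48 of them were tested. In *Cxcr2-/-* neutrophils 10 rose, 11 fell and 27 did not pass (edgeR adjusted p under 0.05), with a median log2 fold change of 0.06 against 0.01 for all genes. These counts, 10 and 11 of 48, stand beside 23.7% and 21.0% of all genes. With the covariate for B and T cell RNA they were 5 and 6.

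Of 7 other canonical PRC1 genes tested, 1 rose and 3 fell, beside 23.7% and 21.0% of all genes. *Scml4*, a sex comb on midleg-like protein, fell about as far as *Cbx7* was lower, from 5.42, 5.55, 5.29 and 5.70 CPM in WT to 1.82, 0.913, 1.09 and 1.41 CPM (log2 fold change -2.06, SE 0.22, edgeR adjusted p = 1.16e-05). Its relative *Scmh1* rose from 5.77 ± 0.785 to 10.5 ± 0.732 CPM (0.86, SE 0.14, adjusted p = 2.91e-04). The ubiquitin ligase gene *Rnf2* fell from 34.5 ± 2.34 to 25.3 ± 4.04 CPM (-0.45, SE 0.12, adjusted p = 0.00696). With the covariate for B and T cell RNA its log2 fold change was -0.51 with a wider error (SE 0.21, edgeR adjusted p = 0.104). Its alternative *Ring1* was at 3.35 ± 0.275 and 3.44 ± 0.628 CPM (0.04, 95% interval -0.36 to 0.44, edgeR adjusted p = 0.879), with a sign that turned under other scalings. The polyhomeotic gene *Phc3*, named after its values were seen, fell by 0.35 on the log2 scale. *Pcgf2*, the alternative to *Bmi1*, was at 0.242 and 0.188 CPM, too low to test.

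In variant PRC1, whose complexes work without a Cbx reader, 6 of 21 genes rose and 3 fell, beside 23.7% and 21.0% of all genes. *Bcor*, a corepressor subunit, fell from 86.4 ± 15.5 to 38.0 ± 4.70 CPM (-1.19, SE 0.14, edgeR adjusted p = 2.28e-05), while its relative *Bcorl1* rose from 43.0 ± 2.86 to 69.2 ± 16.5 CPM (0.69, SE 0.14, adjusted p = 0.00198). With the covariate for B and T cell RNA the change of *Bcorl1* was 0.13 and did not pass (adjusted p = 0.676). *Mga*, a DNA-binding scaffold, fell by 0.66 (SE 0.10, adjusted p = 2.27e-04) and *Fbrsl1*, named after its values were seen, by 0.50 on the log2 scale. *Csnk2b*, the regulatory subunit of casein kinase, rose from 44.8 ± 6.34 to 76.2 ± 6.46 CPM (0.77, SE 0.11, adjusted p = 1.27e-04). The catalytic subunit genes *Csnk2a1* (0.44) and *Csnk2a2* (0.37), named after their values were seen, rose as well.

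Among 9 other PRC2 genes, 1 rose and 2 fell, beside 23.7% and 21.0% of all genes. Of the 3 Polycomb-like subunits, which guide PRC2 to chromatin, 1 rose, 1 fell and *Mtf2*, named after its values were seen, did not pass (0.26, SE 0.12, edgeR adjusted p = 0.0899). *Phf19* rose from 2.28, 2.59, 2.86 and 2.46 CPM in WT to 7.36, 7.36, 7.04 and 7.97 CPM in *Cxcr2-/-* libraries (1.54, SE 0.15, edgeR adjusted p = 5.81e-06). *Phf1* fell from 104, 109, 96.6 and 103 CPM to 81.8, 71.2, 65.1 and 55.5 CPM (-0.59, SE 0.11, adjusted p = 9.58e-04). The groups did not overlap for *Phf19* or *Phf1*. *Phf19* thus had the direction of *Ezh2*, and *Phf1* that of *Ezh1*. Most proliferation markers and the granule genes were also higher in *Cxcr2-/-* libraries, and their part in the *Phf19* result was not tested. Within that group the summed granule genes ran from 70.5 to 386 CPM, while *Phf19* stayed between 7.04 and 7.97 CPM. *Aebp2*, a cofactor named after its values were seen, fell by 0.52 on the log2 scale (edgeR adjusted p = 0.00431).

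Of the enzymes that undo Polycomb marks, both H3K27 demethylase genes tested fell, beside 21.0% of all genes. *Kdm6a* went from 127 ± 2.74 to 97.2 ± 6.96 CPM (-0.38, SE 0.08, edgeR adjusted p = 0.00237) and *Kdm6b* from 898 ± 115 to 644 ± 112 CPM (-0.48, SE 0.14, adjusted p = 0.0134). With the covariate for B and T cell RNA the change of *Kdm6a* was -0.39, with a wider error (SE 0.15, edgeR adjusted p = 0.0838). In the list of the PR-DUB complex, which removes ubiquitin from histone H2A, 2 of 9 genes rose and 1 fell. These counts stand beside 23.7% and 21.0% of all genes. *Hcfc1* rose from 55.4 ± 6.69 to 129.9 ± 23.4 CPM (1.23, SE 0.13, adjusted p = 1.50e-05) and *Foxk2*, named after its values were seen, by 0.53 on the log2 scale. *Ogt*, the O-GlcNAc transferase, fell from 878 ± 60.8 to 465 ± 63.2 CPM (-0.92, SE 0.12, edgeR adjusted p = 4.34e-05).

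**Figure D3:**
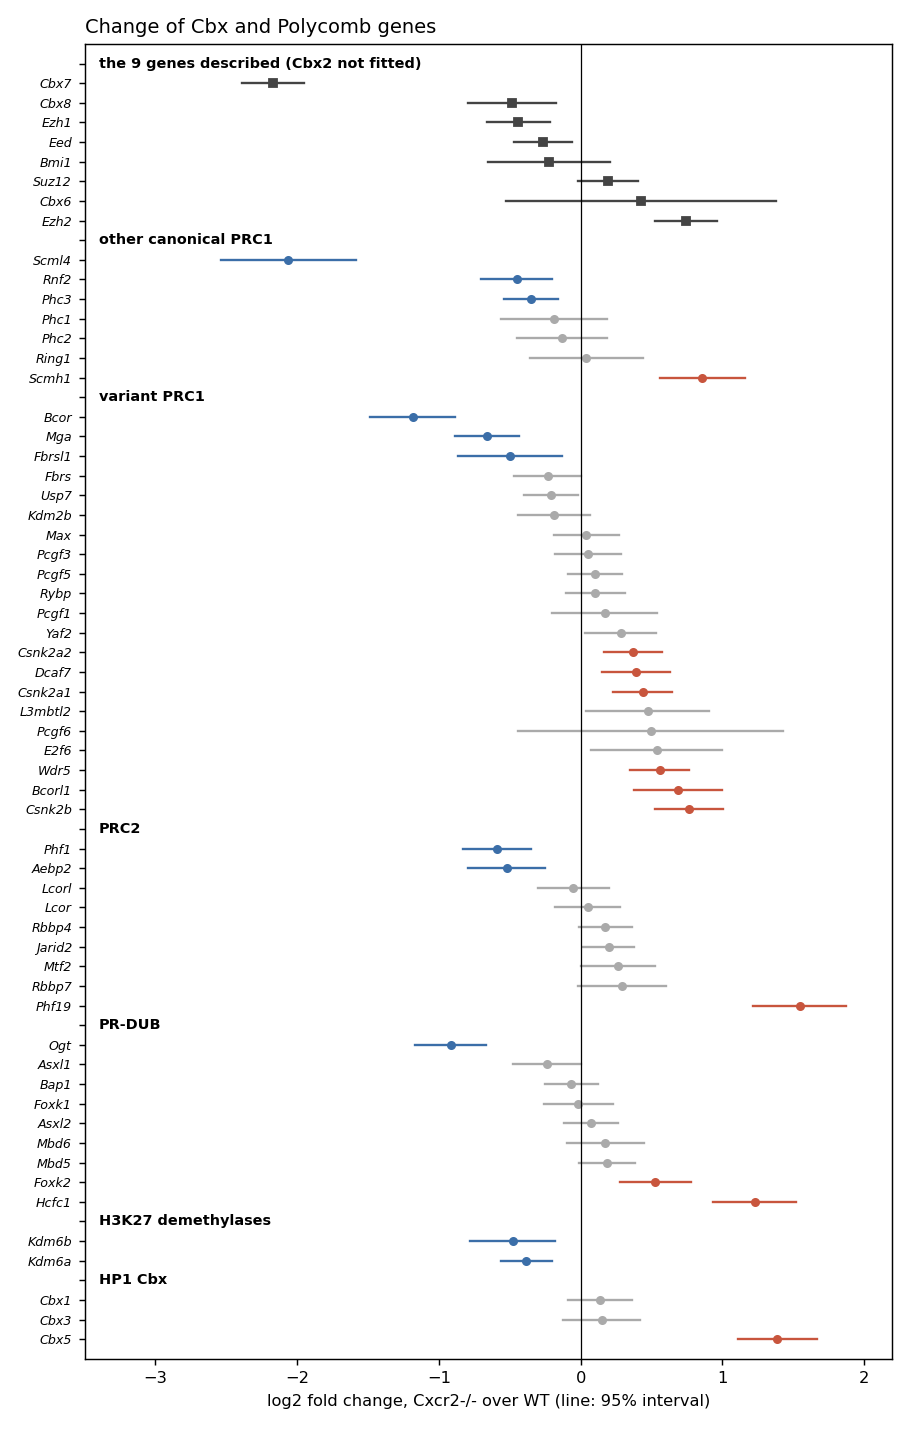
Log2 fold change, *Cxcr2-/-* over WT (x axis), with its 95% interval (line), for the 8 fitted genes of the 9 (dark squares) and the other Polycomb and HP1 genes by list. Blue points fell and red points rose at an edgeR adjusted p under 0.05, and grey points did not pass; *Cbx7* at -2.17 and *Scml4* at -2.06 lie farthest left and *Phf19* at 1.54 farthest right.

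The Cbx genes outside Polycomb encode the HP1 proteins, whose chromodomain reads the heterochromatin mark on H3K9. *Cbx5* rose from 14.0, 16.0, 14.0 and 11.4 CPM in WT to 32.3, 39.3, 32.3 and 41.4 CPM in *Cxcr2-/-* libraries (1.39, SE 0.13, edgeR adjusted p = 3.72e-06). *Cbx1* (0.14, 95% interval -0.09 to 0.36, adjusted p = 0.306) and *Cbx3* (0.15, 95% interval -0.12 to 0.42, adjusted p = 0.362) did not pass. Most proliferation markers were higher in *Cxcr2-/-* libraries as well, and their part in the *Cbx5* result was not tested.

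The Trithorax group counters Polycomb with activating marks and remodelling. Of its 15 listed genes 6 rose and 5 fell, beside 23.7% and 21.0% of all genes, and 4 rose by at least 1.5-fold, beside 15.7% of all genes. These were *Smarca4*, an ATPase of the BAF complex (35.9 ± 3.13 to 79.3 ± 10.7 CPM, 1.14, SE 0.11, edgeR adjusted p = 4.92e-06), and *Men1* (0.83, adjusted p = 1.57e-04), *Dpy30* (0.86, adjusted p = 0.00178) and *Ash2l* (0.73, adjusted p = 0.00175), which belong to H3K4 methyltransferase complexes. The other risers were *Rbbp5* (0.27) and *Cxxc1* (0.35), 2 more subunits of such complexes. *Kmt2a* (-0.52), *Kmt2c* (-0.41), *Kmt2e* (-0.38), *Ash1l* (-0.37) and the ATPase gene *Smarca2* (-0.40) fell. These genes and the other risers were named after their values were seen. With the covariate for B and T cell RNA, which widened the errors, *Men1* was at 0.56 (SE 0.21, edgeR adjusted p = 0.0754) and *Ash2l* at 0.82 (SE 0.28, adjusted p = 0.0501).

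Most of the well-known Polycomb targets were at or near 0 in both groups. Of 41 Hox and Ink4 genes, 22 had no count in any library and 4 were tested. Of these 4, 1 fell, beside 21.0% of all genes, and 3 did not pass. The one that fell was *Cdkn2b*, a cell cycle inhibitor, at 0.486, 0.764, 0.321 and 0.405 CPM in WT and 0.0506, 0.221, 0.203 and 0.146 CPM in *Cxcr2-/-* libraries (-1.67, SE 0.48, edgeR adjusted p = 0.0131). It was at -1.40 (SE 0.52, adjusted p = 0.0524) without WT replicate 2 and at -1.86 (SE 0.89, adjusted p = 0.155) with the covariate for B and T cell RNA. *Hoxb4* had the highest level of the list, at 9.50 ± 2.04 and 10.5 ± 2.53 CPM (0.14, 95% interval -0.27 to 0.55, edgeR adjusted p = 0.577). *Cdkn2a*, the target for which Cbx7 and Bmi1 are best known, was at 0.0111 CPM in WT and without a count in *Cxcr2-/-* libraries, so no change at this gene was detectable at this depth.

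The summed macrophage and dendritic cell markers also differed between the groups. The summed 10 monocyte and macrophage markers were at 454 to 549 CPM in WT and 211 to 346 CPM in *Cxcr2-/-* libraries, most of it *Csf1r*. Of the 10, 2 fell (*Csf1r* and *Adgre1*) and 1 rose (edgeR adjusted p under 0.05), beside 21.0% and 23.7% of all genes. The riser was *Ccr2*, at 4.34 to 9.06 CPM in WT and 7.48 to 45.7 CPM in *Cxcr2-/-* libraries. The sort was on F4/80- cells, and *Adgre1*, which encodes F4/80, was at 26.6 to 36.5 and 9.60 to 16.3 CPM. Dendritic cell markers summed to 9.14 to 28.6 and 5.81 to 8.65 CPM. Their part in the values of the 9 genes was not tested.

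**Figure D4:**
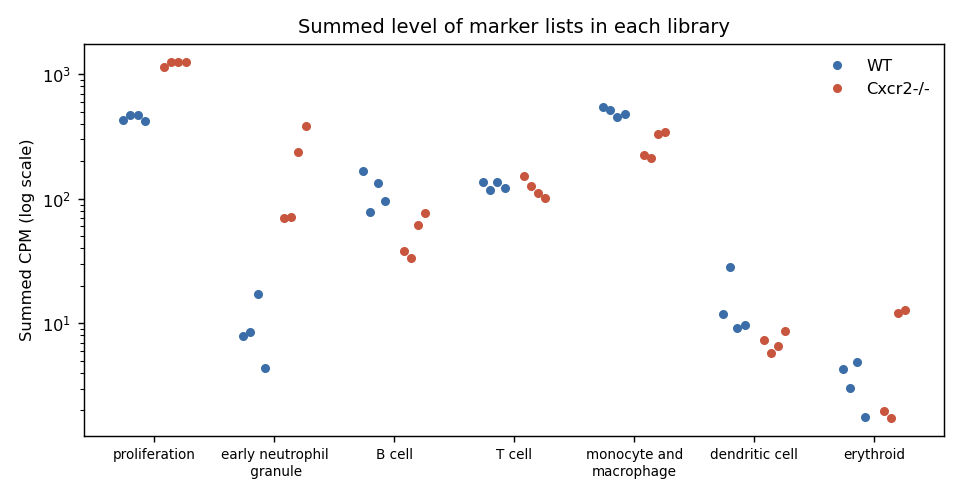
Summed CPM (y axis, log scale) of the marker genes of each list in the 4 WT (blue) and 4 *Cxcr2-/-* (red) libraries. The sums of proliferation (422 to 474 against 1139 to 1258 CPM) and early granule genes are higher in each *Cxcr2-/-* library. Those of B cell and macrophage markers are lower in each, and those of the T cell and erythroid lists overlap. Most of the macrophage sum is *Csf1r*, and most of the T cell sum is *Cd3d*.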

How the data were processed

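RNA of sorted spleen neutrophils from 4 WT and 4 *Cxcr2-/-* mice was depleted of ribosomal RNA and made into directional libraries. Reads were trimmed, mapped on mm10 using STAR and assigned to genes by HTSeq, and the authors deposited the raw counts per Ensembl gene without normalization. The strand setting, versions and annotation are not given in the sources used here, so values of genes with an overlapping or antisense partner are uncertain. Pairs on no gene were 31.4% to 41.5% of those counted in WT and 26.6% to 31.9% in *Cxcr2-/-* libraries and were left out. Symbols, positions and exon lengths are from GENCODE M21 (GRCm38), which held 52133 of 55414 identifiers. The files carry later gene versions, and 1.42% of counts lay on identifiers without an entry.

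Counts were tested in R 4.3.3 with edgeR 4.0.16 (quasi-likelihood, TMM, filterByExpr, Benjamini-Hochberg over 16778 genes, two-sided). A gene rose or fell when its adjusted p was under 0.05. The steps were tested on simulated data. No library was a copy of another: in 12 pairs of replicates chi-square per gene was 24.3 to 98.3, beyond sampling noise.

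The 9 genes and all lists were chosen with earlier results of these data known. Named were the 9 genes, listed genes past the test with at least a 1.5-fold change, *Ring1*, *Rnf2*, *Pcgf2*, *Kdm6a*, *Kdm6b*, *Cbx1*, *Cbx3*, *Cbx5*, *Cxcr2*, the 5 genes most like *Cbx7* and marker genes. *Hoxb4*, *Cdkn2a*, overlapping genes and those marked so were named after their values were seen. A gene that falls under the rule is not reported here.

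Alternatives were DESeq2 1.42.0 (the tool of the study), RLE and upper-quartile normalization, no filter, a minimum of 10 counts per library, a block for the replicate number, a B and T cell RNA covariate, a 1.5-fold limit and each library left out. Scaling by total counts was added after the data were seen.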

Additional observations from a re-analysis of the deposited data

Results flagged for a closer look

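Among 64 groups of 4 libraries, for the 9 genes and the named others, 4 had one library whose gap to the nearest of the other libraries was, as a fraction of the whole range of the group, above Dixon's 95% critical value. Chance gives about 1 in 20 such groups. *Ezh1* was at 112 CPM in WT replicate 4, with the nearest library at 97.1 CPM (gap 0.856 of the range). *Eed* was at 60.9 CPM in WT replicate 3, against 54.4 CPM (0.842). *Bmi1* was at 4.98 CPM in *Cxcr2-/-* replicate 4, against 3.43 CPM (0.901). *Ring1* was at 2.94 CPM in WT replicate 1, against 3.44 CPM (0.841). Without these libraries the log2 fold changes were -0.38 for *Ezh1*, -0.24 for *Eed*, -0.41 for *Bmi1* and -0.02 for *Ring1*, beside -0.44, -0.27, -0.22 and 0.04 with all 8 libraries.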

How the results depend on the processing

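Under 16 alternatives, the 8 genes fitted kept their sign in 127 of 128 values, and 121 moved by less than 1 SD. *Cbx7* was at -2.29 with upper-quartile normalization and between -2.24 and -2.10 with 1 library left out. The exception in sign was *Bmi1* with the covariate for B and T cell RNA. That covariate left 2126 genes higher and 1741 lower over all genes, and 5 and 6 of the other Polycomb genes. A 1.5-fold limit left 2628 genes higher over all genes and 5 and 5 of the other Polycomb genes, by its construction. With 1 library left out, the other Polycomb genes gave 9 to 13 higher and 10 to 12 lower, beside 10 and 11 with all libraries. They gave 9 and 15 with upper-quartile normalization, and 10 and 14 with scaling by total counts and with at least 10 counts in every library. *Ring1* changed sign with upper-quartile normalization (-0.081), the covariate (-0.27), scaling by total counts (-0.062) and over the left-out libraries (-0.080 to 0.11), and it passed the test in none of these. The cause was not tested. Upper-quartile normalization moved the median of all genes by -0.12 and the share of calls that were higher from 53% to 41.2% (3076 higher, 4391 lower), and scaling by total counts moved that share to 44.3%.

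The replicate numbers name separate mice, and the deviations of same-numbered mice correlated between -0.262 and 0.158, above 0.1 in 2 of 4 pairs. Those of differently numbered mice correlated between -0.19 and 0.264, above 0.1 in 4 of 12 pairs. The ranges overlapped, and the numbers were not taken as a pairing. With the replicate block, *Cbx7* was at -2.17, 3719 genes were higher and 3349 lower, and 10 and 11 of the other Polycomb genes. *Cbx2*, at 8 counts or fewer per library, was too shallow for a comparison.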
